A study of Mus musculus with 12 samples.

Results

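The genes described here encode the proteins of the mitochondrial ribosome that carry an Mrpl or Mrps symbol, Mrpl for the large subunit and Mrps for the small one. They were chosen by symbol, from the probe sets to which the platform annotation gives a single gene name. Of 18194 genes on the arrays 76 carried such a name, 47 Mrpl and 29 Mrps, and all 76 passed the filter on low values (log2 intensity above 4 on at least 3 of 12 arrays) that left 10287 genes for testing. Each gene was read from the probe set with its highest mean, out of 156 probe sets for the 76 genes.

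The mitochondrial ribosome translates the few messages of the mitochondrial genome, which encode core subunits of the respiratory chain and of ATP synthase. All of its proteins are encoded in the nucleus, made in the cytosol and imported, and they assemble on ribosomal RNAs that the mitochondrial genome supplies. Many descend from bacterial ribosomal proteins, while others were added during the evolution of mitochondria. MYC is a transcription factor known for raising genes of ribosome assembly and of mitochondrial function in growing cells, and tristetraprolin (TTP, encoded by Zfp36) binds AU-rich elements in messages and speeds their decay.

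RNA came from bone marrow cells of mice aged 4 to 6 weeks, selected with magnetic beads for B220 (CD45R), a surface protein of B-lineage cells that is also found outside it. There were 4 groups of 3 arrays each: Eμ-Myc;Eµ-TTP-1 mice (written Myc TTP), Eμ-Myc mice (Myc), Eµ-TTP-1 mice (TTP) and wild type mice. All were littermates on a background of 94% C57BL/6, and the labels call the Myc TTP and Myc mice precancerous. Eµ is the enhancer of the immunoglobulin heavy chain gene, so the transgenes are driven in B-lineage cells, and the labels call the samples biological replicates without naming further details of the animals. Levels are log2 of the deposited intensity, and differences are log2 differences ± the standard error of a limma fit with 4 group means on all 12 arrays; calls were made where the p adjusted over 10287 genes after Benjamini and Hochberg was under 0.05.

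Some arrays went against their labels, so group names below stand for labels. Log2 Myc was 11.82, 12.73 and 13.37 on Myc TTP arrays 1 to 3, 13.71, 13.92 and 12.99 on Myc arrays, 10.05, 10.39 and 13.47 on TTP arrays, and 9.65, 9.68 and 12.65 on wild type arrays. The arrays labelled TTP 3 and wild type 3 therefore had Myc levels near those of the Myc arrays. Zfp36 was no higher in TTP than in wild type arrays, at -0.26 ± 0.39 (limma, adjusted p = 1), and whether its probe set reads the transgene was not tested. Xist and at least 1 Y-linked gene were both above the floor on the 4 arrays numbered 3. Myc 1 had Xist below the floor, at 1.86, and the Y-linked Eif2s3y at 9.72. The other arrays numbered 1 and 2 had Xist above the floor and the Y-linked genes read below it. The part of sex in the results was not tested. The main counts and medians, and most averaged differences of genes described array by array, are also given without the arrays labelled TTP 3 and wild type 3. These arrays were picked from their values, and wild type 3 and TTP 3 were the highest of their groups in 75 and 67 of the 76 genes. Leaving them out while keeping Myc 3 and Myc TTP 3 thus tends to raise the Myc differences. Fits without them are no independent support. Markers of other blood cells differed too: 15 of 15 granulocyte genes fell with Myc in the averaged comparison described below, with a summed intensity of 106957 to 161759 on Myc TTP, 9369 to 215168 on Myc, 180834 to 365900 on TTP and 229250 to 321350 on wild type arrays. In the same comparison 9 of 11 erythroid genes, 9 of 9 monocyte and macrophage genes and 6 of 7 T and NK cell genes fell, the remaining T and NK cell gene rose, and 8 of 9 pan-B genes fell, with a median difference of -0.58 over the 9. Among all genes tested 24.6% fell and 18.7% rose. In such bulk samples fewer cells of a type cannot be told apart from less RNA per cell, and the part of these markers in the results below was not tested.

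The main pattern was a higher level of mitochondrial ribosomal protein messages with the Myc transgene. Averaged over both backgrounds, Myc TTP over TTP and Myc over wild type, 64 of the 76 genes rose and 0 fell, and all 76 differences were positive (limma, adjusted p from 0.0169 to 0.0486 among the 64). Among all genes tested 18.7% rose and 24.6% fell in this comparison. The median difference of the 76 genes was 0.52, a 1.44-fold difference, against -0.06 for all genes tested, and single genes ranged from 0.03 for Mrpl24 to 1.00 for Mrps27. The differences were spread over most of the family and modest in size, with 39 genes above 0.5 and 0 above 1. Of the 64 genes 37 were called whichever 1 of the 12 arrays was left out, and the count without 1 array ran from 37 without wild type 2 to 70. It was 40 without wild type 1, 40 without TTP 1, 41 without Myc 1 and 39 without Myc 2. Over all 10287 genes these fits called 1018, 1042, 1001 and 1058 higher, and the fit without wild type 2 called 961, against 1920 in the main fit. Without the arrays labelled TTP 3 and wild type 3, 70 genes rose, against 24.1% of all genes, with a median of 0.70.

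**Figure D1:**
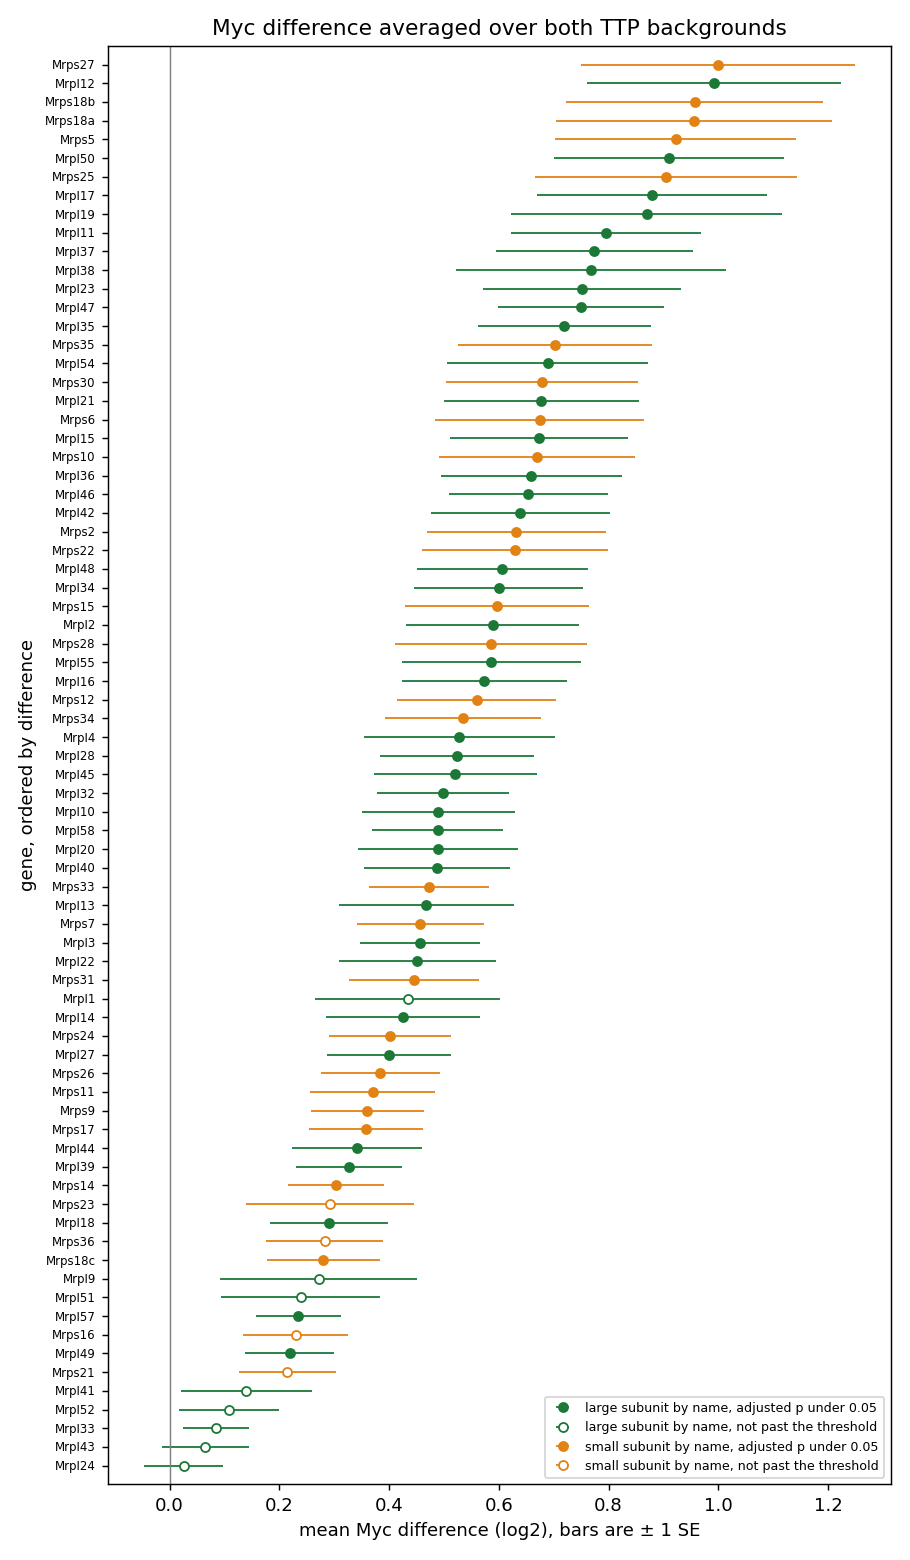
The Myc difference of each of the 76 genes averaged over both TTP backgrounds (log2, x axis), ordered by size down the page, with bars of ± 1 SE; colours give the subunit by name, and open points mark the 12 genes whose adjusted p was not under 0.05. All 76 points lie right of 0, from Mrpl24 at 0.03 to Mrps27 at 1.00, the 5 lowest are large-subunit genes by name, and genes of both subunits lie above them.

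**Figure D2:**
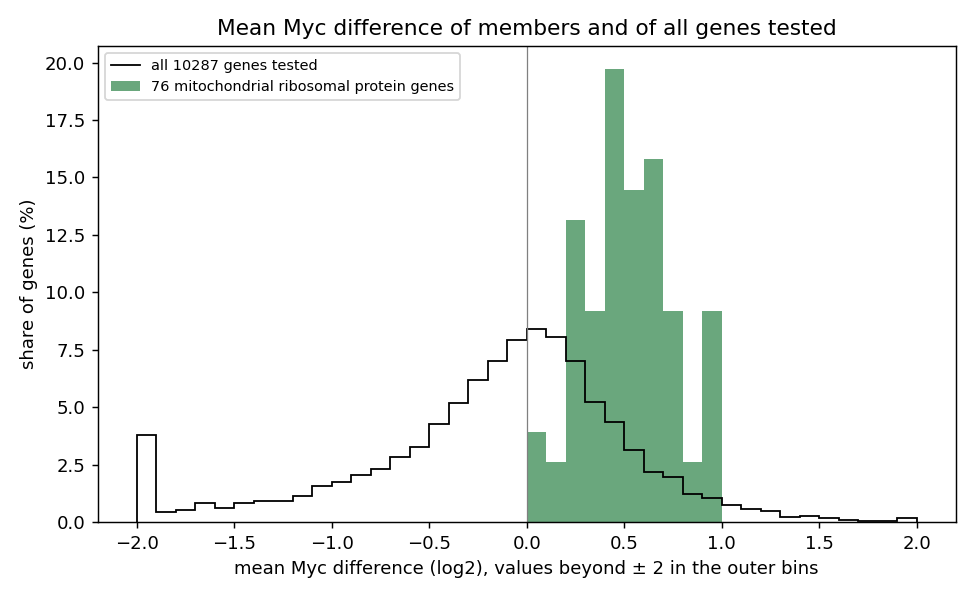
Share of genes (y axis, percent) in bins of the averaged Myc difference (x axis, log2) for the 76 genes (filled) and for all 10287 genes tested (line), with values beyond ± 2 in the outer bins. The 76 genes lie between 0.03 and 1.00 with a median of 0.52, while all genes spread to both sides of a median of -0.06.

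The proteins of the stalks, mobile arms of the large subunit of which 1 is the docking place of translation factors, included the gene with the largest difference in its subunit. Mrpl12, the mitochondrial form of the L7/L12 stalk protein, which also binds the mitochondrial RNA polymerase, had log2 levels of 13.23, 13.04 and 13.15 in Myc TTP, 13.10, 13.03 and 12.55 in Myc, 11.81, 11.85 and 12.68 in TTP, and 11.51, 11.55 and 12.74 in wild type arrays. All Myc TTP arrays lay above all TTP and wild type arrays, while the lowest Myc array lay below the highest TTP and wild type arrays, those numbered 3. The averaged difference was 0.99 ± 0.23 (limma, adjusted p = 0.0169), and without the arrays labelled TTP 3 and wild type 3 it was 1.34 ± 0.11.

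Mrpl11, at the base of that stalk, read 11.67, 11.61 and 11.67 in Myc TTP, 11.66, 11.56 and 11.08 in Myc, 10.51, 10.57 and 11.18 in TTP, and 10.42, 10.55 and 11.26 in wild type arrays. Its Myc TTP arrays lay close together and above all TTP and wild type arrays, and the Myc 3 array lay below TTP 3 and wild type 3. Mrpl11 rose by 0.80 ± 0.17 in the averaged comparison (limma, adjusted p = 0.0169), and by 1.03 ± 0.11 without the arrays labelled TTP 3 and wild type 3. Of the 5 stalk genes tested 4 rose, with a median of 0.69. The exception was Mrpl1, the protein of the L1 stalk near the exit site for used tRNAs, at 0.43 ± 0.17 (limma, adjusted p = 0.0570).

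Proteins around the exit tunnel, through which the new chain leaves towards the inner membrane, ranged from Mrpl24 at 0.03 to Mrpl17 at 0.88. Mrpl47, the relative of bacterial L29 beside the tunnel exit, had the smallest p of all 76 genes. It stood at 11.76, 11.55 and 11.59 in Myc TTP, 11.42, 11.51 and 11.24 in Myc, 10.58, 10.55 and 11.11 in TTP, and 10.46, 10.60 and 11.27 in wild type arrays. The Myc TTP arrays lay above every TTP and wild type array, and Myc 3 lay just under wild type 3. Mrpl47 rose by 0.75 ± 0.15 (limma, adjusted p = 0.0169), and by 0.96 ± 0.08 without the arrays labelled TTP 3 and wild type 3.

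Mrpl24, another protein of the tunnel exit, read 11.94, 11.94 and 12.12 in Myc TTP, 11.81, 11.91 and 11.74 in Myc, 11.72, 11.98 and 11.88 in TTP, and 11.87, 11.84 and 11.996 in wild type arrays. The Myc TTP arrays lay above the Myc arrays, and all other pairs of groups overlapped. Its averaged difference of 0.03 ± 0.07 was the smallest of the 76 (limma, adjusted p = 0.785), and it was 0.05 ± 0.08 without the arrays labelled TTP 3 and wild type 3. The other 7 of the 8 tunnel genes rose, and the median of the 8 was 0.49. They included Mrpl17 at 0.88 ± 0.21, Mrpl23 at 0.75 ± 0.18 and Mrpl45, a protein near the inner membrane, at 0.52 ± 0.15. For the central protuberance, the crest that faces the small subunit, 4 genes were listed, which need not be all of its proteins. All 4 listed genes rose (Mrpl38 by 0.77 ± 0.25, Mrpl40 by 0.49 ± 0.13, Mrpl48 by 0.61 ± 0.16, and Mrpl46), with a median of 0.63. Mrpl46 stood at 11.07, 10.69 and 10.70 in Myc TTP, 10.58, 10.64 and 10.11 in Myc, 9.95, 9.84 and 10.25 in TTP, and 9.73, 9.78 and 10.31 in wild type arrays. Again Myc TTP did not overlap TTP or wild type, whereas Myc overlapped both through array 3. The averaged difference of Mrpl46 was 0.65 ± 0.15 (limma, adjusted p = 0.0169), and 0.81 ± 0.13 without TTP 3 and wild type 3.

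Over the whole large subunit by name, 39 of 47 genes rose with a median of 0.52. The remaining genes of the group included Mrpl35, of bacterial descent, which was 11.85, 11.58 and 11.78 in Myc TTP, 11.38, 11.52 and 11.14 in Myc, 10.64, 10.72 and 11.16 in TTP, and 10.57, 10.50 and 11.34 in wild type arrays. Its averaged difference was 0.72 ± 0.16 (limma, adjusted p = 0.0169), and 0.93 ± 0.09 without TTP 3 and wild type 3. Mrpl19 was among the 3 genes of largest spread within groups, with 11.34, 11.47 and 11.12 in Myc TTP, 11.52, 11.08 and 10.57 in Myc, 10.04, 10.11 and 10.79 in TTP, and 9.96, 9.85 and 11.13 in wild type arrays. Here the array labelled wild type 3 reached the level of Myc TTP 3, and the difference of 0.87 ± 0.25 (limma, adjusted p = 0.0207) was not called without wild type 1, wild type 2, TTP 1, TTP 2 or Myc 1. It was 1.19 ± 0.16 without TTP 3 and wild type 3. The mitochondria-specific Mrpl50 rose by 0.91 ± 0.21, and Mrpl58, a peptidyl-tRNA hydrolase that frees stalled ribosomes, by 0.49 ± 0.12. Mrpl18, the relative of bacterial L18, rose by 0.29 ± 0.11, a call that held in 2 of the 12 fits without 1 array. Mrpl55 rose by 0.59 ± 0.16, and Mrpl52 stood at 0.11 ± 0.09 without a call. The 8 large-subunit genes without a call were Mrpl1, Mrpl9, Mrpl24, Mrpl33, Mrpl41, Mrpl43, Mrpl51 and Mrpl52.

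Of the small subunit by name 25 of 29 genes rose, with a median of 0.53. Mrps5, the relative of bacterial S5 at the mRNA entry, had log2 levels of 10.51, 10.52 and 10.40 in Myc TTP, 10.50, 10.19 and 9.77 in Myc, 8.98, 9.17 and 9.95 in TTP, and 9.06, 9.14 and 10.07 in wild type arrays. The Myc TTP arrays again stood above all TTP and wild type arrays, and Mrps5 rose by 0.92 ± 0.22 (limma, adjusted p = 0.0169), or by 1.23 ± 0.14 without TTP 3 and wild type 3. Mrps12, the relative of bacterial S12 at the decoding centre, read 11.58, 11.46 and 11.43 in Myc TTP, 11.39, 11.45 and 10.73 in Myc, 10.68, 10.68 and 10.93 in TTP, and 10.65, 10.58 and 11.16 in wild type arrays. Myc TTP did not overlap TTP or wild type, Myc 3 lay below TTP 3 and wild type 3, and the averaged difference was 0.56 ± 0.14 (limma, adjusted p = 0.0171), or 0.69 ± 0.13 without TTP 3 and wild type 3.

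Mrps27, a mitochondria-specific protein with RNA-binding repeats, had the largest averaged difference of the 76 genes. It stood at 9.86, 9.54 and 9.57 in Myc TTP, 9.31, 9.32 and 8.77 in Myc, 8.13, 8.16 and 8.98 in TTP, and 7.75, 8.17 and 9.19 in wild type arrays. Myc TTP did not overlap any other group, and the difference was 1.00 ± 0.25 (limma, adjusted p = 0.0169), or 1.34 ± 0.15 without TTP 3 and wild type 3. Mrps14, the relative of bacterial S14, read 13.57, 13.34 and 13.36 in Myc TTP, 13.06, 13.25 and 13.06 in Myc, 12.99, 12.93 and 13.04 in TTP, and 12.82, 12.83 and 13.24 in wild type arrays. It rose by 0.30 ± 0.09 (limma, adjusted p = 0.0216), a call that was lost without wild type 1, wild type 2, TTP 1, TTP 2 or Myc 2, and by 0.38 ± 0.07 without TTP 3 and wild type 3. The 4 small-subunit genes without a call were Mrps16, Mrps21, Mrps23 and Mrps36.

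The 3 genes named Mrps18 had averaged differences of unlike size. They are paralogs of bacterial S18 that occupy separate places: Mrps18c and Mrps18b lie in the small subunit, whereas the Mrps18a protein lies in the large subunit in structures of the mammalian particle. Mrps18a read 11.75, 11.73 and 11.42 in Myc TTP, 11.93, 11.16 and 10.68 in Myc, 10.21, 10.59 and 10.97 in TTP, and 10.004, 10.03 and 11.12 in wild type arrays. Mrps18b read 11.24, 10.90 and 10.87 in Myc TTP, 10.76, 10.84 and 10.16 in Myc, 9.67, 9.66 and 10.31 in TTP, and 9.25, 9.54 and 10.60 in wild type arrays. Mrps18c read 11.99, 11.80 and 11.67 in Myc TTP, 11.52, 11.50 and 11.33 in Myc, 11.45, 11.37 and 11.22 in TTP, and 11.15, 11.27 and 11.68 in wild type arrays. For the first and second of these the Myc TTP arrays stood clear of TTP and wild type, while for Mrps18c Myc TTP 3 and wild type 3 were level. The averaged differences were 0.96 ± 0.25 for Mrps18a, 0.96 ± 0.23 for Mrps18b and 0.28 ± 0.10 for Mrps18c (limma, adjusted p = 0.0174, 0.0169 and 0.0486). They were 1.23 ± 0.21, 1.27 ± 0.15 and 0.33 ± 0.08 without the arrays labelled TTP 3 and wild type 3. The call of Mrps18c held in only 2 of the 12 fits that left out 1 array. The difference between the paralogs was not tested.

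Mrps30 is also a large-subunit protein by structure despite its name, and it rose by 0.68 ± 0.17 (limma, adjusted p = 0.0171). Mrps36 is now known as a part of the alpha-ketoglutarate dehydrogenase complex and is absent from structures of the ribosome. It had 10.81, 10.78 and 10.69 in Myc TTP, 10.64, 10.51 and 10.40 in Myc, 10.19, 10.38 and 10.54 in TTP, and 10.22, 10.16 and 10.66 in wild type arrays, a difference of 0.28 ± 0.11 that missed the threshold (limma, adjusted p = 0.0511). It was 0.40 ± 0.08 and past the threshold without the arrays labelled TTP 3 and wild type 3 (limma, adjusted p = 0.00237). Counted by structure, 41 of 49 large-subunit and 23 of 26 small-subunit genes rose, with medians of 0.52 and 0.50. By descent, 37 of 43 genes with a bacterial homologue and 23 of 28 mitochondria-specific genes rose, both with a median of 0.50.

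**Figure D3:**
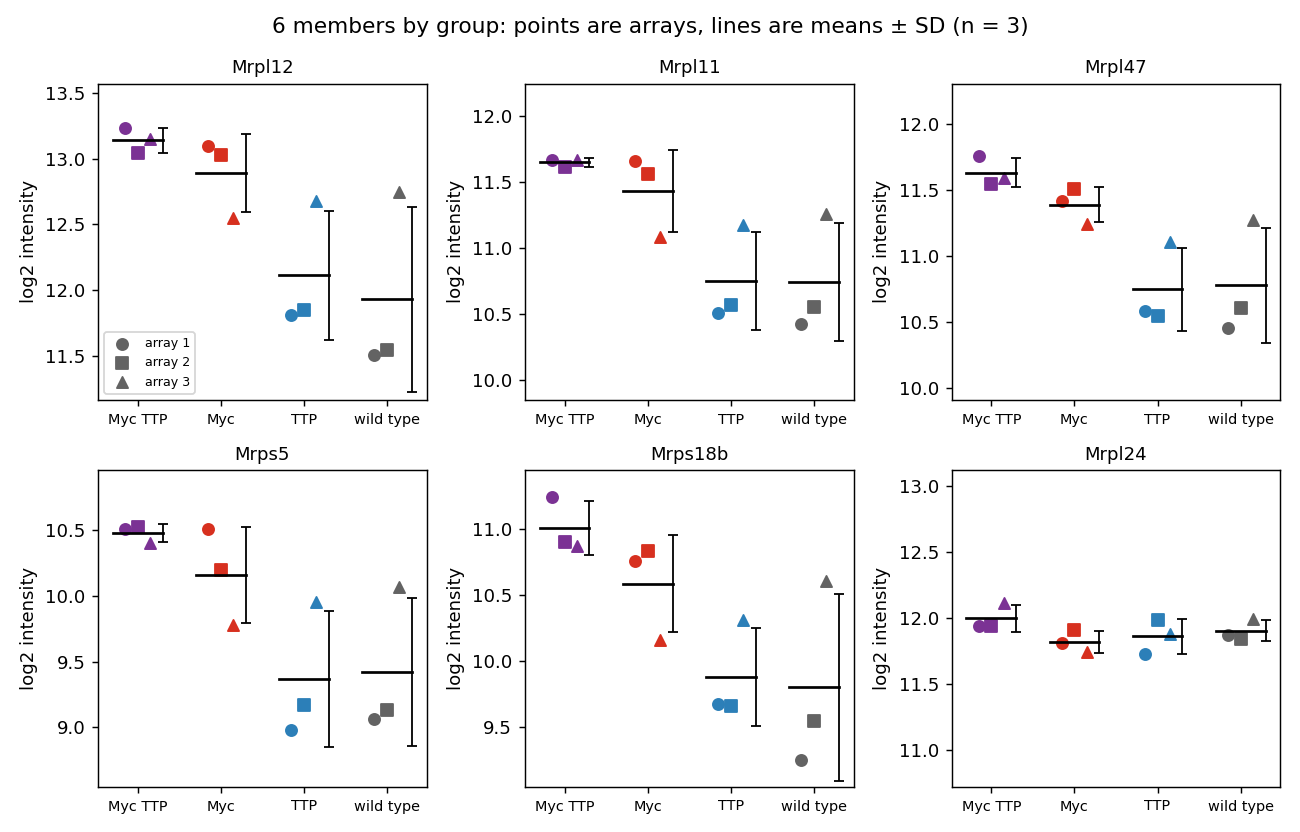
Log2 intensity (y axis) of 6 genes in the 4 groups (x axis); points are arrays, with symbols for arrays 1 to 3, and lines are group means with SD (n = 3 each); each panel spans the same range of log2 units. In 5 genes the Myc TTP arrays stand above all TTP and wild type arrays and the triangles of TTP 3 and wild type 3 lie above the other arrays of their groups, while for Mrpl24 the Myc TTP arrays overlap TTP and wild type arrays.

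Promoters of the genes with the smallest p and of the Mrps18 paralogs are shown because a shared response raises the question of which factor motifs lie at their start sites. RefSeq windows on mouse build GRCm38.p6, from 250 bases before to 50 bases after a start site, were found for 67 of the 76 genes, 73 windows in all. Each is written 5′ to 3′ on the strand of its gene, with matches in capitals to the E-box CACGTG (bound by MYC with MAX), the NRF1 core TGCGCA, the ETS core CCGGAAG (bound by GABPA) or the YY1 core AAGATGGC, searched on both strands. Mrpl11 is from chr19:4962056-4962355 (plus strand), Mrpl35 from chr6:71823735-71824034 (minus), Mrpl46 from chr7:78783040-78783339 (minus), Mrpl47 from chr3:32736706-32737005 (minus), Mrps18a from chr17:46110754-46111053 (plus), Mrps18b from chr17:35916391-35916690 (minus) and Mrps18c from chr5:100798509-100798808 (plus).
Mrpl11: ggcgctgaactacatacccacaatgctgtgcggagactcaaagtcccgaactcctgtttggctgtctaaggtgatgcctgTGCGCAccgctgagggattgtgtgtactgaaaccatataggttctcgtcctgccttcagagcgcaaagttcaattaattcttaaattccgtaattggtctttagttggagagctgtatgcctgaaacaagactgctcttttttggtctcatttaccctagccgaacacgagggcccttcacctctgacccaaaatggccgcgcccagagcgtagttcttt
Mrpl35: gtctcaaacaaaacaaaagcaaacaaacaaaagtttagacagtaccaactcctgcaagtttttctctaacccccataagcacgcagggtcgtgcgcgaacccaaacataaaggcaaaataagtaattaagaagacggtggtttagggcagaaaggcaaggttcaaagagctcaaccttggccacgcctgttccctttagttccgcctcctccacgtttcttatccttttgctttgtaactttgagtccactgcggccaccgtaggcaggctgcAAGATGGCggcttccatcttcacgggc
Mrpl46: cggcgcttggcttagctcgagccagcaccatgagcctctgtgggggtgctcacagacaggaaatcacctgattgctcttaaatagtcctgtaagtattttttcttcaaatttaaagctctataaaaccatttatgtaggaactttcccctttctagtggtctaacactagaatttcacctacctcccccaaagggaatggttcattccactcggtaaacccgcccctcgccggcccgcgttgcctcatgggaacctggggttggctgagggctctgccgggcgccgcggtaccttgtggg
Mrpl47: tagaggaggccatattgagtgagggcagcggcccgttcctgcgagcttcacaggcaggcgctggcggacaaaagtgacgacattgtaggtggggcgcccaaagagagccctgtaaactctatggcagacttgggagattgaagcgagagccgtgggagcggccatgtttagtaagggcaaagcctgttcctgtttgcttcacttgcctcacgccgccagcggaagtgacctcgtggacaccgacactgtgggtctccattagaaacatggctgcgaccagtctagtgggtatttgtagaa
Mrps18a: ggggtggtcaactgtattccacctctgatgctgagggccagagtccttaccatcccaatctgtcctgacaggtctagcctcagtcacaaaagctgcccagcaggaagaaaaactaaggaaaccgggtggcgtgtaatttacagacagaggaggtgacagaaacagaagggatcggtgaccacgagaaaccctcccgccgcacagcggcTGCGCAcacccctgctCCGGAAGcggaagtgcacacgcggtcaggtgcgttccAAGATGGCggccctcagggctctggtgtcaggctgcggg
Mrps18b: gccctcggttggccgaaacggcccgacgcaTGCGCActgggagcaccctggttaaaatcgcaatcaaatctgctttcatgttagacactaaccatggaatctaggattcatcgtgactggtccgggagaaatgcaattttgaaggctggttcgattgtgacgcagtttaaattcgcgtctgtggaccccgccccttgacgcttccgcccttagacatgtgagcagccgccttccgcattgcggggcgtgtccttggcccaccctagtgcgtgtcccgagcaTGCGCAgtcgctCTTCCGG
Mrps18c: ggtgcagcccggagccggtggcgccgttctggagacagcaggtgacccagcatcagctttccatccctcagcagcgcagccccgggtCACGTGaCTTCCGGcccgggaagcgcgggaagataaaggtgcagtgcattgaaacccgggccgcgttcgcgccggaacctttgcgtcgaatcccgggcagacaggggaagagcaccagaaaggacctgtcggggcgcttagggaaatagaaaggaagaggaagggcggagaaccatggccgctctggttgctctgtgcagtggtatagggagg

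Mrpl11 held 1 NRF1 core and Mrpl35 held 1 YY1 core, while the windows of Mrpl46 and of Mrpl47 held none of these letters. Mrps18a held an NRF1 core, an ETS core and a YY1 core, Mrps18b 2 NRF1 cores and an ETS core, and Mrps18c an E-box next to an ETS core. Over the 73 windows an E-box was found in 9.59%, against 7.15% of all 32851 RefSeq windows and 10.4% of the windows of genes tested here. NRF1 cores were in 30.1%, against 7.76% of all windows and 14.1% of those of tested genes. ETS cores were in 34.2%, against 8.86% and 18.7%, and YY1 cores in 16.4%, against 2.75% and 4.83%. By gene, an E-box was found in 5 of 67, namely Mrpl2, Mrpl20, Mrpl36, Mrpl37 and Mrps18c. Mrpl2 had 3 overlapping windows, so its E-box counted 3 times in the share of windows. These are matches of letters and not binding sites, and their absence says nothing of a factor. Among the 67 genes with a window, the median averaged Myc difference was 0.59 with an E-box and 0.49 without one. It was 0.49 with and 0.51 without an NRF1 core, 0.45 and 0.52 for the ETS core, and 0.60 and 0.49 for the YY1 core. A link of motifs to the differences was not tested.

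Many of these genes also share their start region with a neighbour on the opposite strand. Windows of 24 of 73 promoters, 32.9%, overlapped head to head with the window of another gene, against 16.5% of the windows of tested genes and 9.84% of all windows. Mrpl46 and Mrps11 form such a pair with each other, with start sites 42 bases apart on chromosome 7, so the Mrpl46 window above also holds the Mrps11 start on its other strand. Mrps11 stood at 9.58, 9.40 and 9.29 in Myc TTP, 9.003, 8.99 and 8.82 in Myc, 8.92, 8.77 and 8.98 in TTP, and 8.46, 8.73 and 9.004 in wild type arrays. Its Myc TTP arrays exceeded all other arrays, and it rose by 0.37 ± 0.11 (limma, adjusted p = 0.0269), against 0.65 ± 0.15 for Mrpl46. Without TTP 3 and wild type 3 the difference of Mrps11 was 0.46 ± 0.11. Of 18 neighbours outside the family that were tested, 8 rose and 1 fell, against 18.7% and 24.6% of all genes tested. The 1 that fell was 2610507I01Rik, at -0.51 ± 0.17 (limma, adjusted p = 0.0365), beside Mrpl55, which rose by 0.59 ± 0.16. Mrps12 and Sars2, the mitochondrial seryl-tRNA synthetase gene, both rose, by 0.56 ± 0.14 and 0.72 ± 0.18. By contrast Mrpl43 stood at 0.07 ± 0.08 (limma, adjusted p = 0.515) while Twnk, the mitochondrial DNA helicase gene 116 bases away, rose by 1.30 ± 0.32 (limma, adjusted p = 0.0169).

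Neither of the separate Myc comparisons called a gene of the family. In Myc TTP over TTP 0 of 76 were called by limma, in a comparison that called 0% of all genes in either direction. Yet 68 had an unadjusted p under 0.05, against 3707 of all 10287 genes in either direction, and 75 were positive. The median was 0.70, against 0.09 for all genes, and the smallest adjusted p was 0.0607, shared by several genes. Mrps7, the relative of bacterial S7, read 11.22, 11.04 and 11.10 in Myc TTP and 10.46, 10.28 and 10.58 in TTP arrays, a difference of 0.68 ± 0.16 (limma, adjusted p = 0.0607). Mrps24, of the mRNA entry site, read 12.08, 11.79 and 11.70 in Myc TTP and 11.04, 11.26 and 11.33 in TTP arrays, a difference of 0.65 ± 0.16 (limma, adjusted p = 0.0607). For 70 of the 76 genes the lowest Myc TTP array was above the highest TTP array, which held for 30.6% of all genes. Without the arrays labelled TTP 3 and wild type 3, 67 genes were called higher, against 21% of all genes, with a median of 0.79.

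In Myc over wild type 0 of 76 genes were called, against 0.467% of all genes called higher and 10.6% called lower by limma. Here 72 were positive and 4 negative. An unadjusted p under 0.05 was found in 20, against 4218 of all 10287 genes in either direction. The median was 0.37, against -0.21 for all genes. The smallest adjusted p was that of Mrpl12, at 0.96 ± 0.33 (limma, adjusted p = 0.0647), and the 4 negative genes were Mrpl43, Mrpl49, Mrpl24 and Mrpl41, between -0.15 and -0.01. After scaling all arrays to a common median the same 4 were positive and the family's median was 0.63. No gene of the family had all Myc arrays above all wild type arrays, a pattern found in 3.49% of all genes. The reverse was seen in 1 of 76 genes and in 41.3% of all genes. Without the arrays labelled TTP 3 and wild type 3, 54 genes were called higher, against 14% of all genes, with a median of 0.58. Leaving out wild type 3 gave 42, against 11.5% of all genes. Without wild type 1 the median was 0.24, the lowest of the fits without 1 array.

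Levels also differed between arrays of a group. The median log2 level of the 76 genes was 11.62, 11.46 and 11.41 on Myc TTP arrays 1 to 3, 11.38, 11.30 and 10.92 on Myc arrays, 10.61, 10.59 and 11.06 on TTP arrays, and 10.54, 10.58 and 11.26 on wild type arrays. Myc TTP arrays were highest, and the arrays labelled wild type 3 and TTP 3 both stood above Myc 3. Wild type 3 exceeded wild type 1 and 2 in 75 of 76 genes (41.0% of all genes), TTP 3 exceeded TTP 1 and 2 in 67 (25.2%), and Myc 3 was below Myc 1 and 2 in 73 (41.9%). In 57 of 76 genes each of TTP 1, TTP 2, wild type 1 and wild type 2 lay below every array of Myc TTP and Myc, against 15.1% of all genes. The highest array was a Myc TTP array in 68 of 76 genes, against 42.8% of all genes. Over the 6 arrays with the Myc transgene and the 6 without it, no gene of the family had groups that did not overlap. Among all genes 0.758% had the arrays with the transgene higher without overlap, and 0.865% had them lower. The median level of the granulocyte markers on the same arrays was 10.63, 9.32 and 8.74 in Myc TTP, 4.06, 5.85 and 10.50 in Myc, 12.38, 13.05 and 10.06 in TTP, and 11.73, 12.08 and 10.89 in wild type. Within Myc, TTP and wild type the arrays numbered 3 thus stood apart for these markers as well, in the opposite sense to the ribosomal genes, and the part of this in the results was not tested.

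**Figure D4:**
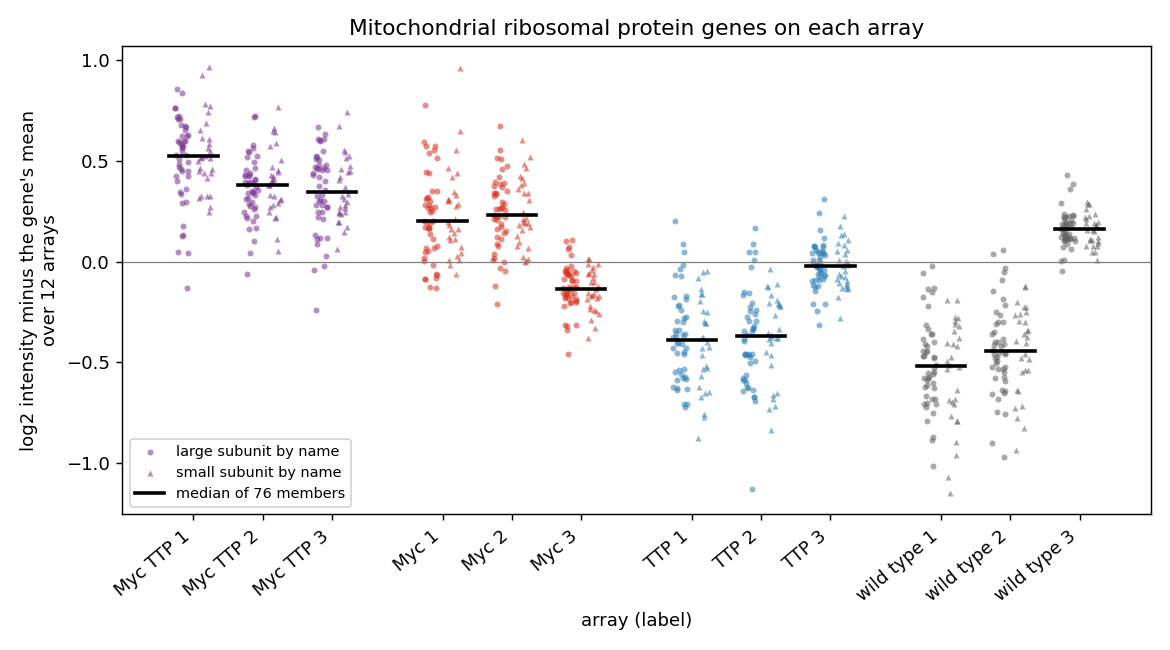
Log2 intensity of each of the 76 genes minus that gene's mean over 12 arrays (y axis), by array (x axis), with circles for the large and triangles for the small subunit by name and a bar for the median of the 76. Myc TTP arrays are highest, wild type 1 and 2 and TTP 1 and 2 are lowest, and Myc 3, TTP 3 and wild type 3 lie between them, for genes of both subunits.

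Median levels of both subunits followed each other across arrays. They were 11.76, 11.59 and 11.61 for large-subunit and 11.25, 11.17 and 11.27 for small-subunit genes on Myc TTP arrays. On wild type arrays they were 10.69, 10.71 and 11.34 for large-subunit and 10.22, 10.32 and 10.92 for small-subunit genes. The difference between these medians varied with an SD of 0.05 within groups, while the median of all 76 genes varied with an SD of 0.28.

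The TTP transgene alone went with no called change. In TTP over wild type 0 of 76 genes and 0% of all genes were called in either direction by limma. An unadjusted p under 0.05 was found in 0 of the 76 and in 149 of all 10287 genes. Of the 76, 42 were positive and 34 negative around a median of 0.01. Groups not overlapping with TTP higher were seen in 0 of 76 genes (0.603% of all), and with TTP lower in 2 of 76 (3.65% of all). The smallest p were those of Mrpl51, 0.43 ± 0.20 higher in TTP, and of Mrpl49, at -0.23 ± 0.11, both with an adjusted p of 1. The sign of the median moved with single arrays. Without wild type 3 there were 71 positive and 5 negative genes with a median of 0.21, and without TTP 3 there were 15 positive and 61 negative with a median of -0.12. Without both of these arrays 57 were positive and 19 negative, the median was 0.09, and 0 were called. Without wild type 1, 68 were negative, with a median of -0.13.

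With the Myc transgene present, Myc TTP over Myc had 75 positive differences and a median of 0.30, but the median of all genes was 0.27. In it 0 of 76 genes were called (limma, 0% of all genes). Of the 76, 18 had an unadjusted p under 0.05, against 1966 of all 10287 genes in either direction. After scaling to a common median the median of the 76 genes was 0.03, with 44 positive. In 37 of 76 genes all Myc TTP arrays lay above all Myc arrays, against 32.3% of all genes. Leaving out TTP 3 and wild type 3, which this comparison does not use, left the 75 positive genes and the median of 0.30, whereas without Myc 3 there were 68 positive genes and the median was 0.18. The interaction, the TTP difference with Myc minus that without it, called 0 of 76 genes and 0% of all genes by limma. An unadjusted p under 0.05 was found in 4 of the 76, against 1351 of all 10287 genes in either direction. The median interaction of the 76 genes was 0.31 against 0.34 for all genes, and -0.01 after scaling to a common median. Without 1 array the median ran from 0.10 without wild type 3, with 21 genes negative, to 0.43. Without TTP 3 and wild type 3, 68 genes were positive, with a median of 0.21 against 0.23 for all genes. Mrpl49, a mitochondria-specific large-subunit protein, was the gene of smallest p there. It read 10.71, 10.59 and 10.61 in Myc TTP, 10.21, 10.07 and 10.15 in Myc, 10.01, 9.96 and 10.19 in TTP, and 10.14, 10.34 and 10.38 in wild type arrays. Myc TTP stood above the other groups, which overlapped with each other, and its interaction was 0.73 ± 0.16 (limma, adjusted p = 0.358). Mrpl51 had a negative interaction, at -0.59 ± 0.29 (limma, adjusted p = 0.393), with 12.15, 12.56 and 12.26 in Myc TTP, 12.57, 12.67 and 12.22 in Myc, 12.22, 12.33 and 12.60 in TTP, and 11.68, 11.76 and 12.41 in wild type arrays. This probe set of Mrpl51 gave 0.53 in Myc over wild type and -0.06 in Myc TTP over TTP. Another one above the floor, with a mean level of 5.55, gave 0.22 and 0.26 and so did not share the negative sign.

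Against wild type, Myc TTP arrays were higher in all 76 genes with a median of 0.70, against 0.03 for all genes, but 0 were called by limma, with 0% of all genes called higher and 0.00972% lower. The smallest adjusted p was 0.0520, and 68 genes had an unadjusted p under 0.05, against 3908 of all 10287 genes in either direction. In 62 genes all Myc TTP arrays lay above all wild type arrays, against 25% of all genes. The reverse held in 0 of 76 genes and in 20.6% of all genes. Without the array labelled wild type 3, 70 genes were called higher in Myc TTP, against 20.7% of all genes. Without it and TTP 3, 72 were called, against 23.2% of all genes, with a median of 0.90.

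Single probe sets were also fitted. Of 156 probe sets 136 passed the filter, 132 of them had a positive averaged Myc difference, and 86 were called higher, against 14.1% of all probe sets (limma). For 4 genes another probe set had a negative difference: -0.32 for Mrpl21, -0.12 for Mrpl47, -0.09 for Mrps21 and -0.01 for Mrpl28, none of them called. Mrpl9 was uncalled by its brightest probe set, at 0.27 ± 0.18, one whose name ends in s_at and which can match more than 1 transcript. Its other probe sets gave 0.56 and 0.72, both called (limma over all probe sets, adjusted p = 0.0219 and 0.0279). Mrpl37, Mrpl38, Mrps12 and Mrps24, all called higher, were also read from probe sets whose names end in s_at. Mrps23 was uncalled by its brightest probe set, at 0.29, while another gave 0.37 and was called (limma over all probe sets, adjusted p = 0.0452). Conversely, some other probe sets of genes called higher gave small differences without a call. Examples were 0.12 for Mrpl38, 0.07 and 0.05 for Mrps9, 0.06 for Mrpl15 and 0.0004 for Mrps11. Further probe sets of Mrpl15 were called, between 0.66 and 1.06.

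Genes that work with the mitochondrial ribosome were read from lists chosen by function. For the counts below, 18.7% of all genes tested rose and 24.6% fell in the averaged comparison. All 4 tested ribosomal proteins with other names rose in the averaged comparison: Dap3, a GTP-binding protein of the small subunit, by 0.64 ± 0.16, Gadd45gip1, of the large subunit, by 0.81 ± 0.21, Chchd1 by 0.57 ± 0.13 and Ptcd3 by 0.56 ± 0.15, both of the small subunit. Dap3 read 12.12, 11.97 and 12.30 in Myc TTP, 11.91, 11.92 and 11.52 in Myc, 11.14, 11.26 and 11.74 in TTP, and 10.90, 11.08 and 11.78 in wild type arrays. Of 24 genes of assembly and rRNA modification 13 rose and 0 fell, with a median of 0.40. Mrm3, an rRNA methyltransferase, rose by 1.37 ± 0.33 and Noa1, a GTPase of small-subunit assembly, by 1.16 ± 0.28, while Nsun4, another methyltransferase, stood at -0.25 ± 0.12 without a call. Of 11 translation factors 6 rose, with a median of 0.62, among them the recycling factor Mrrf by 1.14 ± 0.28, the exchange factor Tsfm by 1.07 ± 0.26 and the elongation factor Tufm by 0.74 ± 0.20. Of 10 genes of mitochondrial DNA upkeep and transcription 3 rose: Twnk, Tfb2m, a factor that opens mitochondrial promoters, by 0.36 ± 0.10 and Tfam, which packages the genome, by 0.31 ± 0.10, while the polymerase Polrmt stood at 0.31 ± 0.12 (limma, adjusted p = 0.0518). Genes of cycling cells gave 1 higher and 1 lower of 11, with a median of 0.10, and their median level was 13.50 to 13.65 on Myc TTP, 13.37 to 13.49 on Myc, 13.16 to 13.62 on TTP and 13.27 to 13.52 on wild type arrays, so the groups overlapped apart from Myc TTP and Myc.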

How the data were processed

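Total RNA of each of 12 samples was hybridised to 1 Affymetrix MOE430 2.0 array, in 4 groups of 3 taken from the labels. The authors deposited 1 intensity per probe set, made with GCRMA (version not stated), per the submitters' processing notes. This method removes background, normalizes between arrays and summarises probes. The values lie on a linear scale and are not centred by gene, from 1.73 to 120125, with array medians of 10.9 to 13.9. Because arrays were normalized to each other, a change in total RNA per cell cannot be seen. For further steps, details were not given in sources used here.

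Log2 was taken with no pseudocount. Of 45101 probe sets 34958 had a single symbol in the platform annotation, 932 several and 9211 none; 4 of those with several symbols named a family member and were not used. Symbols were updated through a RefSeq table of assembly GRCm38.p6, and each of 18194 genes was read from its probe set of highest mean. Tests used limma 3.58.1 in R 4.3.3 (lmFit, eBayes with an intensity trend), 4 group means on 12 arrays, 8 residual degrees of freedom, no covariate, two-sided, with Benjamini-Hochberg adjustment over 10287 genes. The averaged Myc comparison is the mean of Myc TTP over TTP and Myc over wild type. The fit was tested on simulated data. P-values set a difference of group means against the spread of arrays within groups. This spread was pooled over the 4 groups and drawn towards that of genes of like intensity. For arrays, their number limits the precision.

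Residuals of same-numbered arrays correlated above 0.1 in all 3 pairs only between TTP and wild type (0.498, 0.664 and 0.821), and across numbers 1 and 2 as well (0.512 and 0.433); the labels state no pairing. The genes named by rule were those of smallest p in each direction of each comparison, the 3 of highest and of lowest level and of largest spread, those whose probe sets disagreed in sign, and Mrpl12, Mrpl11, Mrps12, Mrps5, Mrps18a, Mrps30 and Mrps36; further genes are named as members of a list or a pair. Members and lists were chosen with earlier results of these data known. Alternatives were other floors, normalizations, probe-set rules and variance models, a replicate block, only the groups compared, and arrays left out.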

Additional observations from a re-analysis of the deposited data

How the results depend on the processing

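The averaged Myc comparison called 64 genes of the family higher, against 1920 of all 10287 genes tested. Brackets below give all genes called higher. It called 57 with a replicate block (1663), 57 with no filter (1998 of 18194) and 63 with a floor of log2 6 (1878 of 9136). Quantile normalization gave 68 (3085) and a common median 69 (2667). The probe set of largest SD gave 52 of 73 family genes (1741 of 9982). It was 60 with no intensity trend (1873) and 58 with an unmoderated linear model (1692). The block moved no other count, and the unmoderated model also gave 0 in the other 6 comparisons. Without 1 array the count ran from 37 without wild type 2 (961) to 70 without wild type 3 (2354). Myc over wild type, with 0 (48), gave 54 without the arrays labelled TTP 3 and wild type 3 (1439). Without the 4 arrays numbered 3 it gave 63 (1891), with a median difference of the family of 0.73. Without 1 array it gave 0 to 42 (1179 in the fit with 42). Myc TTP over TTP, with 0, gave 67 and 67 with the same arrays left out (2158 and 2439). Without 1 array its range was 0 to 62 (1716 and 1905 in the fits with 62). Myc TTP over wild type, with 0, gave 72 and 73 with these arrays left out (2390 and 2650), and 0 to 70 without 1 array (2129 in the fit with 70). It gave 40 with a floor of log2 6 (1051 of 9136) and 33 with only the groups compared (831). The family's smallest adjusted p there, 0.0520 (limma), lay close to the threshold. Myc TTP over Myc gave 1 without the 4 arrays numbered 3 (1455), and the median interaction was -0.010 with a common median. The causes were not tested.

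Some single genes changed sign, and of these Mrpl21 in the averaged comparison was called, at 0.68 (limma, adjusted p = 0.0174). In Myc over wild type Mrpl43 was 0.023 with quantile normalization and 0.11 with a common median, Mrpl49 0.059 and 0.12, Mrpl24 0.093 and 0.17, and Mrpl41 0.16 and 0.25; Mrpl41 was also 0.10 without the arrays labelled TTP 3 and wild type 3, 0.13 without the 4 arrays numbered 3, and from -0.13 to 0.10 over the fits without 1 array. In Myc TTP over TTP Mrpl51 was 0.050 without the arrays labelled TTP 3 and wild type 3, 0.082 without those numbered 3, and from -0.17 to 0.050 over the fits without 1 array. With the probe set of largest SD Mrpl49 was 0.034 in TTP over wild type, Mrpl9 0.55 in the interaction and Mrpl21 -0.32 in the averaged comparison. Without 1 array the interaction of Mrpl9 ran from -0.28 to 0.18, and the averaged difference of Mrpl24 from -0.0086 to 0.056.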
